A study of Homo sapiens with 2 samples.

Results

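The BMP and SMAD signalling genes BMP2, BMP4, BMP7, NOG, SMAD3, SMAD6, SMAD7, ID1, ID2 and ID3 were examined for peaks of TET1 in human cardiac progenitors. A peak counted as belonging to a gene when at least 1 base of it lay in the gene's hg19 span, given in whole kb, or within 20 kb on either side of it. The rule used positions and no measured value. It selected 57 of the 46208 peaks of the list, and each of the 10 genes had at least 1 peak, where 43.2% of fixed 50 kb tiles and 70.4% of 150 kb tiles of the genome had 1 or more.

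The design had 1 TET1-V5 ChIP library and 1 input library, both from H1 cells, an established human embryonic stem cell line, on day 7 of differentiation towards the heart. The tagged line carried a V5 epitope on its endogenous TET1, although the genotype entry of both libraries reads wild type. All cells had received 6 µM CHIR99021, which activates WNT signalling, until day 2, and 5 µM IWP2, which blocks it, between days 3 and 5, and no BMP ligand or BMP inhibitor is named in the labels. The sources used here do not say whether the tagged line was 1 clone or more, and no V5 ChIP of untagged cells was analysed. The peak list is the authors' comparison of the ChIP library with input. Read depth is unknown, there is no replicate behind any value, and a peak list holds no RNA measurement against which the labelled cell type or the activity of a gene could be checked.

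TET1 oxidises 5-methylcytosine, the first step in removing methylation from DNA, and through a CXXC zinc finger domain it binds DNA rich in CG dinucleotides. BMP ligands bind cell surface receptor kinases, which phosphorylate receptor SMADs. These enter the nucleus with SMAD4 and raise transcription of targets such as the ID genes. NOG, SMAD6 and SMAD7 restrain the pathway, and BMP signalling helps to form cardiac mesoderm and must be curbed at defined stages of heart formation.

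The sequences just before the start of 5 of the genes are shown because the inhibitory SMAD genes carried the widest peaks and the ID gene spans lay entirely inside peaks. Each is the 250 bases before the outermost RefSeq start, 5′ to 3′ on the gene's own strand, with every CG dinucleotide in capitals. The sequences and positions are RefSeq's on GRCh38.p14, a different build from that of the peaks, so the bases were not placed inside a peak by coordinate. SMAD6 lies on the plus strand at chr15:66701986-66702235, SMAD7 on the minus strand at chr18:48950966-48951215, ID1 on the plus strand at chr20:31605039-31605288, ID2 on the plus strand at chr2:8681806-8682055 and ID3 on the minus strand at chr1:23559502-23559751.
SMAD6: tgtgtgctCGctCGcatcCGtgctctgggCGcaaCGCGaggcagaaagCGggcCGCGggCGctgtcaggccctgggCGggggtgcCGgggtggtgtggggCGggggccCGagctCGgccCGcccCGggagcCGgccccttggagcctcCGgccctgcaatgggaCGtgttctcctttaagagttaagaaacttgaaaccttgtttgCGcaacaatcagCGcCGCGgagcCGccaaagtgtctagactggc
SMAD7: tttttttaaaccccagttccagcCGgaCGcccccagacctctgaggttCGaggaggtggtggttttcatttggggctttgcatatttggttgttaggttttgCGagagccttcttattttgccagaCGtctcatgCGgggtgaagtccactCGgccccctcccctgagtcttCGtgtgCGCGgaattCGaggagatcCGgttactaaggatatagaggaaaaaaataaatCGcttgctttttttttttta
ID1: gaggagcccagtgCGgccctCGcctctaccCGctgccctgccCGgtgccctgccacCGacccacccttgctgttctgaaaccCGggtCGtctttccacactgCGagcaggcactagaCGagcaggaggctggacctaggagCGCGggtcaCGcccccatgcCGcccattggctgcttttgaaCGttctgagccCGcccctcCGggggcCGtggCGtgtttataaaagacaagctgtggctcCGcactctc
ID2: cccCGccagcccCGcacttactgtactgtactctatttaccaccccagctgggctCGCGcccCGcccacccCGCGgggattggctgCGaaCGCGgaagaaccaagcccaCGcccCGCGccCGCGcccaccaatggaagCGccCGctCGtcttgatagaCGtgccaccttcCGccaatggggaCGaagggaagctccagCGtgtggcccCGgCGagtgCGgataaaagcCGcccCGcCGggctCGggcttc
ID3: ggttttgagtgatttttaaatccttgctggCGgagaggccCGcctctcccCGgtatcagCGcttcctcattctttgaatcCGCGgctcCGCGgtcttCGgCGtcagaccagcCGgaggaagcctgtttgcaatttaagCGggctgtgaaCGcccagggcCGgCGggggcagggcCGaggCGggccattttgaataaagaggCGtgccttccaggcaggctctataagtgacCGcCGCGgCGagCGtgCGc

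In these stretches SMAD6 had 25 CG dinucleotides, SMAD7 13, ID1 19, ID2 29 and ID3 24. SMAD3, whose stretch is not printed, had 36. Over 24881 such stretches before an outermost start in the RefSeq table the median was 10 (quartiles 3 and 22), so all 6 genes lay above the median, and SMAD3, SMAD6, ID2 and ID3 above the upper quartile. SMAD7 was the poorest of the 6, with 54.2% of these stretches having fewer CG dinucleotides, and SMAD3 the richest, with 95.4% having fewer. The shares given for motifs below are over all 35116 stretches of the table, which include inner starts. The palindrome GTCTAGAC, a sequence to which SMAD proteins are known to bind, began 12 bases before the SMAD6 start and was absent from the other 5 stretches. It was present in 0.182% of all stretches. The shorter motif GTCT, the first letters of that palindrome, read on both strands, is common, with at least 1 copy in 77.5% of stretches. It occurred 4 times before SMAD7, 3 times before ID1, 2 times each before ID2, ID3 and SMAD6 (the SMAD6 copies being the palindrome itself), and was not found before SMAD3. GGCGCC, which reads alike on both strands, occurred 2 times before SMAD3 and in none of the other 5, against 16.4% of all stretches. CACGTG, the E-box form of the general pattern CANNTG, was found before SMAD3 and in none of the other 5 (6.34% of all stretches). CANNTG, which includes CACGTG, was found before SMAD3, SMAD7 and ID2 (61.8% of all stretches). These are matches of letters in a short window. Of the other genes, BMP4 had 3 entries, none of them at its outermost start, and BMP2, BMP7 and NOG had no entry in the table.

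**Figure D1:**
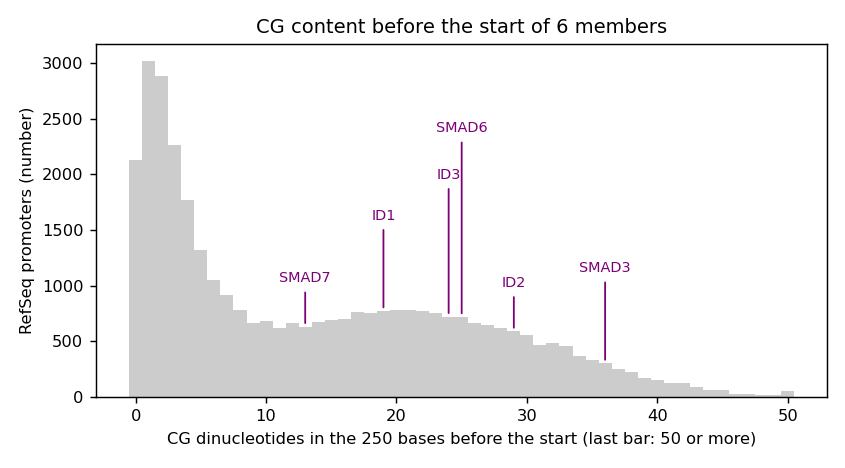
Number of CG dinucleotides in the 250 bases before the start (horizontal axis) against the number of RefSeq promoters with that count (grey bars, vertical axis). The labelled lines mark SMAD7 at 13, ID1 at 19, ID3 at 24, SMAD6 at 25, ID2 at 29 and SMAD3 at 36, to the right of the median of 11 over all 35116 stretches, inner starts included.

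All 10 genes had a peak over the end of the span where transcription starts, and in all 10 that peak was both the widest and the highest scoring of the gene's peaks. For BMP2 and NOG this held by default, since they had no other peak. A wide peak is also more likely than a narrow one to lie over a given base. In each gene the first kb of the span was covered to its last base. At 8 of the 10 genes the start peak stood at a score of 3100 or more, a ceiling where the authors' scores are mostly tied, and the exceptions were close to it, ID3 at 3066.44 and ID2 at 2939.56. In the list 4.69% of peaks stood at the ceiling, and among fixed tiles of the genome 4.52% of 50 kb tiles and 11.8% of 150 kb tiles held such a peak. The windows, which run from 42 to 170 kb, are centred on genes and the tiles are not. Positions of other genes on hg19 were not used here, so the share of all gene starts under such a peak is unknown and nothing in this count is shown to be particular to BMP and SMAD genes.

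The start peaks were set apart from the remaining peaks of the same windows. The 10 start peaks were 4428 to 15636 bp wide (median 6581 bp), and the other 47 peaks 871 to 5075 bp (median 1491 bp), against a median of 1531 bp over the whole list. Only the start peak of BMP2, at 4428 bp, was narrower than the widest of the other peaks, which lies just upstream of ID2. By score the groups did not overlap, at 2939.56 or more for the start peaks and between 52.44 and 2002.4 for the others. In the list 94.9% of peaks scored below 2939.56 and 90.7% below 2002.4. Start peaks of other genes were not available, so whether such a separation is usual is unknown. Of the 47 others, 16 scored above the median of the list and 31 below it, the 16 being 34.0% (exact 95% binomial interval 20.9% to 49.3%), while 15 scored below 100 and 9 scored 300 or more. The interval covers counting error only and treats neighbouring peaks as independent. The list median is over all peaks, whereas the 47 lack the highest scoring peak of each window. A low share was therefore partly built in, and it does not show that these peaks are weaker than comparable peaks elsewhere.

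**Figure D2:**
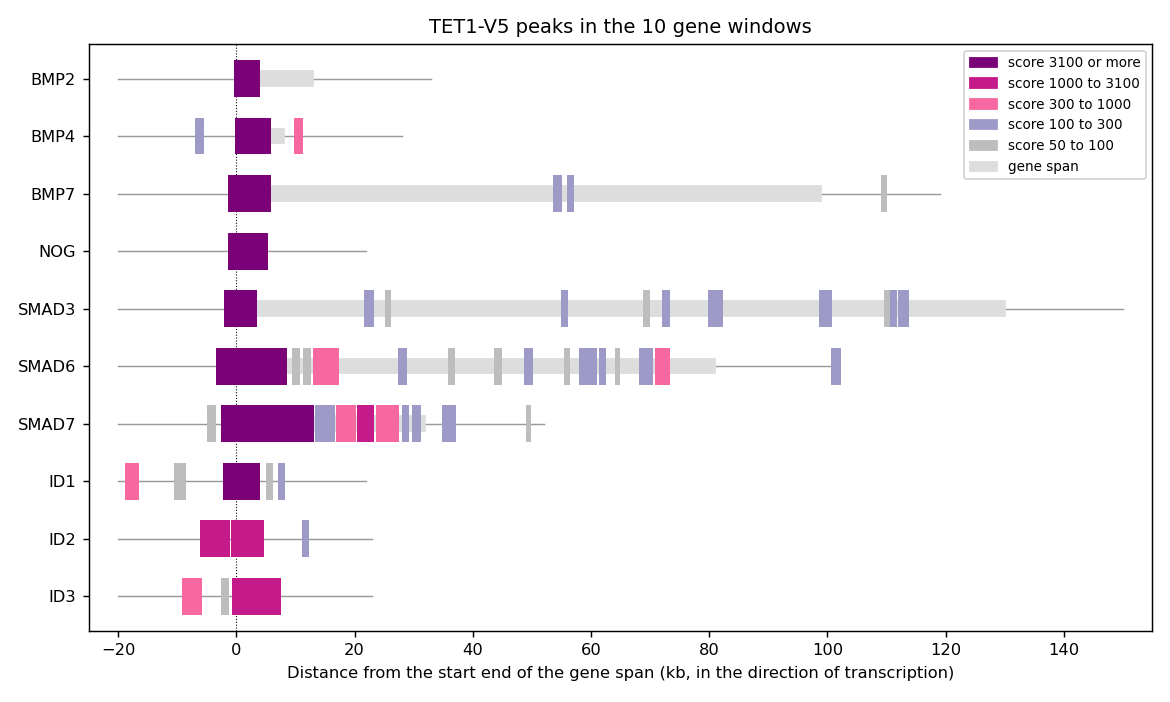
Peaks in the 10 windows, drawn by distance in kb from the start end of each gene span in the direction of transcription (horizontal axis), with a row for each gene; thin lines are windows, pale bars spans and blocks peaks coloured by the authors' score. Every gene has a block of the 2 top score classes over position 0, BMP2 and NOG have no other, and the SMAD7 span is filled almost from end to end.

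**Figure D3:**
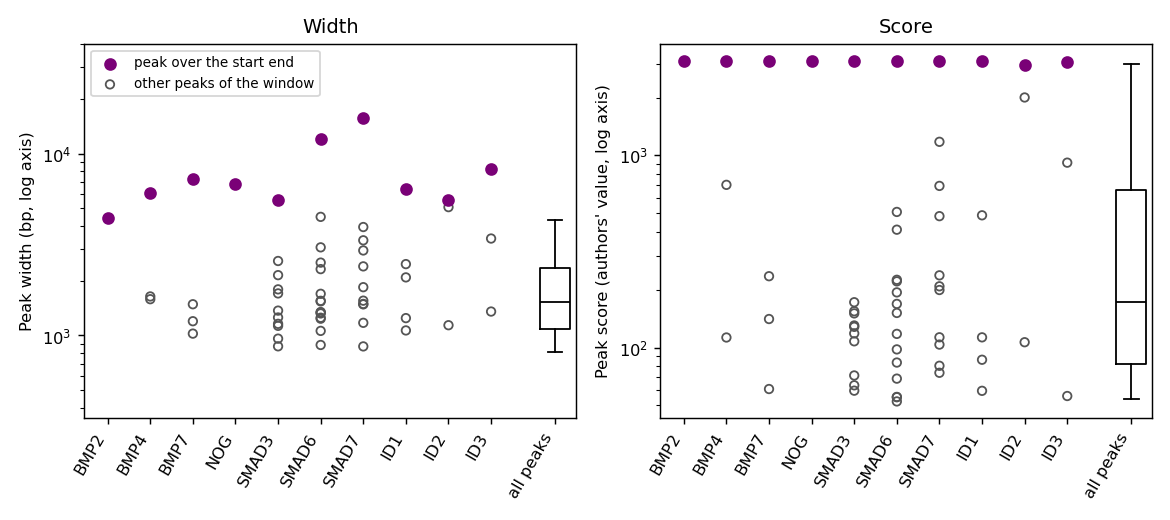
Width in bp (left) and authors' score (right), both on log axes, for each peak of the 10 genes and for the whole list; filled points are peaks over the start end, open points the other peaks, and the box gives the median, quartiles and 5th to 95th percentile of all 46208 peaks. The filled points run from 4428 to 15636 bp and from 2939.56 to 3100, above the list medians of 1531 bp and 172.

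Among the ligands, which are secreted dimers, BMP2 had the fewest peaks per kb of window. Its span lies on chromosome 20 between 6748 and 6761 kb, and its only peak ran from 6747576 to 6752003, 4428 bp wide and at 3100. It covered the first 4.0 kb of the gene and left the rest of the span, 30.8% covered in all, without a peak. No further peak lay within 69.2 kb upstream or 340.8 kb downstream of the span.

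BMP4, a ligand that induces mesoderm and is used to start cardiac differentiation in other protocols, had 3 peaks on chromosome 14. The start peak, from 54418163 to 54424237, was 6075 bp wide, stood at 3100 and covered 5.8 kb of the span, 73.0% of which lay in peaks. Downstream of the gene a peak of 1583 bp scored 702.84, and upstream a peak of 1639 bp scored 112.83. Beyond the window the nearest peaks were 246.1 kb upstream and 730.9 kb downstream of the span, so the 3 peaks stood by themselves in a long stretch without peaks.

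BMP7 spans 99 kb of chromosome 20 and is the longest of the ligand genes, yet it had 4 peaks. The start peak, from 55836208 to 55843429, was 7222 bp wide and at 3100. A pair of peaks, of 1485 bp with a score of 235.15 and of 1198 bp with a score of 140.79, lay about 54 and 56 kb into the gene. The first scored above the list median of 172.235 and the second below it. The last, of 1024 bp and 60.85, was past its far end. Peaks covered 8.56% of the span, the lowest share of the 10 genes.

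NOG encodes noggin, a secreted protein that binds BMP ligands and keeps them from their receptors. Its span of 2 kb on chromosome 17 lay inside a peak from 54669568 to 54676381, which was 6814 bp wide, stood at 3100 and reached 1.4 kb upstream of the start. That was the only peak of the window, with the next ones 82.5 kb downstream and 747.5 kb upstream of the span. BMP2 and NOG each had a lone peak at the ceiling, and their windows had 1.89 (BMP2) and 2.38 (NOG) peaks per 100 kb, the lowest rates of the 10 genes.

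The SMAD genes, which encode the transducers inside the cell, held 37 of the 57 peaks (64.9%) in 363 of the 773 kb of window (47.0%). Per 100 kb of window SMAD7 had 15.3 peaks and SMAD6 12.4, while SMAD3 had 6.47, below ID1 with 11.9 and ID2 and ID3 with 6.98 each. SMAD3, a receptor SMAD that serves TGF-beta and activin rather than BMP, had 11 peaks over a span of 130 kb on chromosome 15. Its start peak, from 67355907 to 67361443, was 5537 bp wide and at 3100. The other 10 lay inside the gene, none in the flanks, and all were weak, with scores from 59.66 to 172.18 and widths from 872 to 2567 bp. They were spread from about 22 to 114 kb into the gene, and 3 of them stood together between 67467647 and 67471818. All 10 scored below the list median of 172.235, the nearest being 172.18.

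SMAD6, which curbs BMP receptor signalling and is itself raised by BMP, had the most peaks, 15 in a window of 121 kb. Its start peak ran from 66990575 to 67002608 on chromosome 15, and with 12034 bp it was the second widest of the 57. The peak reached 3.4 kb upstream of the start and 8.6 kb into the gene. The next 3 peaks followed at gaps of 852, 639 and 238 bp, the last of them 4487 bp wide with a score of 410.7. A second group lay towards the far end of the gene, from 67051944 to 67067388, in which 5 peaks scored between 55.35 and 507.99. In the rest of the gene 5 scattered peaks scored from 52.44 to 151.42, and 1 peak past its far end scored 168.77. In the list 3.22% of 150 kb tiles had 15 or more peaks, and 6.54% had 11 or more, the number found at SMAD3 and at SMAD7. These tiles are longer than the windows of SMAD6 (121 kb) and SMAD7 (72 kb) and shorter than that of SMAD3 (170 kb). The shares are thus only a rough scale, and the same count is denser at SMAD7 than at SMAD3.

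SMAD7, an inhibitory SMAD that acts on both the BMP and the TGF-beta branch, was the gene most fully covered among those with spans over 3 kb. Of its 32 kb on chromosome 18, 29.4 kb lay in peaks (91.7%), and of its 72 kb window 50.9%. In the genome 0.388% of 50 kb tiles and 0.175% of 150 kb tiles were covered to 50% or more. Its start peak, from 46464915 to 46480550, was 15636 bp wide, the widest of the 57, and 99.9% of the list was narrower. It stood at 3100 and covered 13.1 kb of the gene from the start. A further 7 peaks filled the rest of the span with gaps of 31 to 564 bp. In order from the start peak they scored 208.36, 237.65, 693.91, 1177.1, 482.96, 113.12 and 103.64. From peak to peak the scores therefore did not fall steadily but rose again to 1177.1 about 20 to 23 kb into the gene. Each score belongs to a whole called peak, so this is not a profile of read signal, which was not analysed. SMAD6 and SMAD7 held the only 2 of the 57 peaks that were 10 kb or wider, a class that makes up 0.290% of the list.

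Joining peaks across gaps of up to 1 kb, an analysis chosen after their positions had been seen, put 9 peaks at SMAD7 into 1 stretch of 36212 bp, from 46446784 to 46482995. Peaks filled 92.2% of it. By length it ranked 9th among the 40724 stretches of the genome made in the same way. At SMAD6 the joined stretch held 4 peaks and ran 20828 bp, from 66990575 to 67011402, which ranked 51st, and 57 stretches of the genome were 20 kb or longer. Those at ID2 and ID3 held 2 peaks each and were 10726 and 10097 bp long, while at the remaining 6 genes the start peak had no neighbour within 1 kb. SMAD3, although the longest gene, had a joined stretch of 5537 bp. Whether such strings are continuous enrichment cut by the peak caller, or separate sites, was not tested, since the read signal was not analysed.

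**Figure D4:**
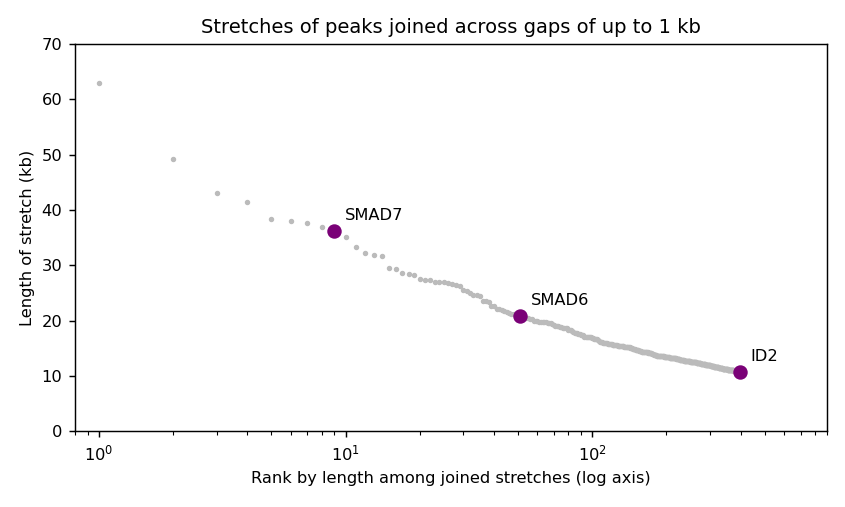
Length in kb of the longest stretches made by joining peaks across gaps of up to 1 kb (vertical axis) by their rank on a log axis, over the whole list (grey) with the stretches at SMAD7, SMAD6 and ID2 marked. SMAD7 ranks 9th at 36.2 kb, SMAD6 51st at 20.8 kb and ID2 396th at 10.7 kb.

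The ID genes encode small proteins that pair with basic helix-loop-helix factors and keep them from DNA, and all 3 had their whole span inside a peak. ID1, on chromosome 20, had a start peak from 30190738 to 30197085 that was 6348 bp wide and at 3100, and it reached from 2.3 kb upstream to 4.1 kb downstream of the start of this 2 kb gene. Upstream peaks of 2468 bp with a score of 487.86 and of 2086 bp with a score of 59.55 lay about 16 and 8.5 kb from the start. Downstream were peaks of 1066 bp (score 86.42) and 1246 bp (score 113.03). The window held 5 peaks, and 5.26% of 50 kb tiles had 5 or more.

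ID2, on chromosome 2, had a strong peak beside the one over its start. The peak over the gene, from 8821041 to 8826618, was 5578 bp wide with a score of 2939.56. Only 73 bp upstream of it lay a peak from 8815893 to 8820967, 5075 bp wide with a score of 2002.4, the highest score among the 47 peaks that were not over a start. In the gene table of GRCh38.p14 the antisense gene ID2-AS1 neighbours ID2, but its position on hg19 was not used, so the upstream peak was not assigned to either. A weak peak of 1139 bp (score 106.62) lay about 11 kb downstream of the start.

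ID3, on chromosome 1, had the widest start peak of the ID genes, 8224 bp from 23879420 to 23887643 with a score of 3066.44. It covered the 3 kb span and continued to 7.6 kb from the start, well past the far end of the gene. Upstream, after a weak peak of 1354 bp with a score of 55.96, lay a peak of 3411 bp with a score of 916.94, from 23892776 to 23896186. No ID3 peak reached the ceiling, nor did one of ID2, whereas ID1 did.

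Per window, peaks covered 50.9% at SMAD7, 31.5% at ID1, 30.2% at ID3, 30.04% at SMAD6, 27.4% at ID2, 19.4% at BMP4, 16.2% at NOG, 12.1% at SMAD3, 8.35% at BMP2 and 7.86% at BMP7. By role, the inhibitory SMADs had 37.8% of their windows covered, the ID genes 29.7%, NOG 16.2%, SMAD3 12.1% and the ligands 10.3%. The windows of the ID genes are 42 to 43 kb long and that of BMP7 is 139 kb, so the roles were not compared at equal length. Over the 10 windows together the share was 21.1%, against 3.69% of the genome stretches between first and last peaks, a ratio of 5.72. Peaks numbered 73.7 per Mb of window (exact 95% Poisson interval 55.8 to 95.5, counting error only) against 18.95 per Mb of those stretches. The windows are centred on genes and the stretches are not, so neither difference is shown to be particular to these genes. In the list 4.14% of 50 kb tiles were covered to 20% or more, and 5 of the 10 windows exceeded 20%. Without SMAD7 the share over the windows was 18.0%, and without SMAD6 and SMAD7 together it was 15.5%.

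**Figure D5:**
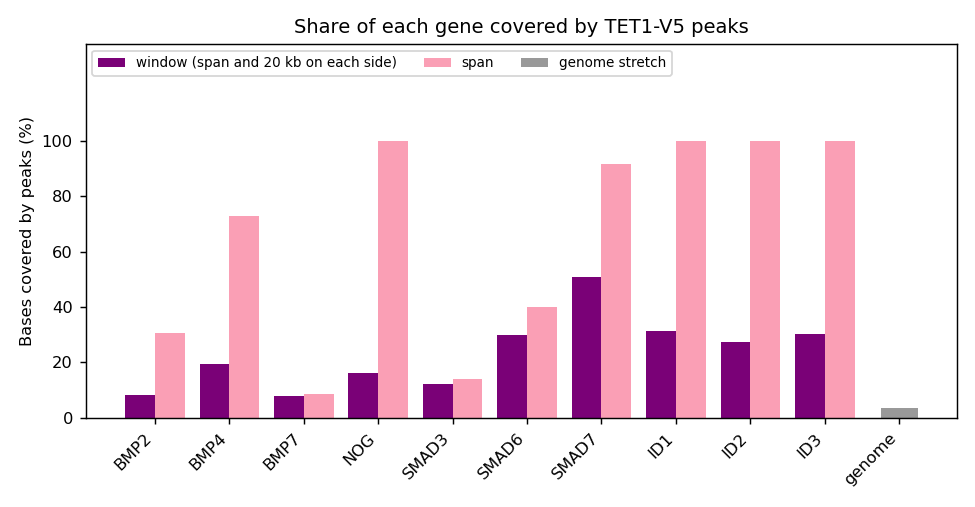
Bases covered by peaks, in percent (vertical axis), for the window and for the span of each gene, with the genome stretches between first and last peaks as a grey bar at 3.69%. The spans of NOG, ID1, ID2 and ID3 reach 100% and that of SMAD7 91.7%, while those of BMP7 and SMAD3 stand at 8.56% and 14.2%.

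Peak by peak the 57 were close to the list in their middle and heavier at the top. Their median width was 1639 bp (quartiles 1252 and 3335 bp), against 1531 bp (1089 and 2361 bp) for the list, and their median score was 154.52 (97.83 and 693.91), against 172 (82.4 and 659). At the ceiling stood 8 of the 57, 14.0% (exact interval 6.26% to 25.8%), where the list has 4.69%. Peaks of 5 kb or more numbered 10 of 57, 17.5% (8.75% to 29.9%), where the list has 3.20%. These 10 were 9 start peaks, all but that of BMP2, and the peak just upstream of ID2. All 8 at the ceiling were start peaks. Both intervals cover counting error only and treat neighbouring peaks as independent. The windows are centred on genes, and start peaks of other genes were not available, so neither share is shown to be particular to these genes.

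The far end of the span was covered at 4 genes, NOG, ID1, ID2 and ID3, whose spans are 2 or 3 kb long, and at none of the 6 longer genes. Peaks in the flanks that did not touch the span numbered 15, with scores from 55.96 to 2002.4 (median 113), and those inside a span but not over its start numbered 32, with scores from 52.44 to 1177.1 (median 136). On GRCh38.p14 other genes overlap or lie within 20 kb of each of these genes except NOG, among them AAGAB at SMAD3 and LINC01169 at SMAD6. Peaks were counted by position only, and none was assigned between a gene and its neighbours. The 20 kb limit decides which outer peaks are counted. Just inside it lay a SMAD6 peak that crosses the edge of the window (1695 bp, score 168.77) and the ID1 peak scoring 487.86. Taking the nearest peak beyond the window on each side of each gene, 7 lay no farther out than the one downstream of ID3, and 4 of them scored below 100. From the nearest outwards they scored 299.81 (20.6 kb upstream of SMAD6), 61.01 (20.8 kb upstream of SMAD3), 58.83 (21.2 kb upstream of ID2), 2502.22 (21.4 kb upstream of SMAD7), 98.76 (21.9 kb downstream of SMAD7), 51.69 (22.96 kb upstream of ID1) and 2679.99 (25.3 kb downstream of ID3). The strong peaks among them, upstream of SMAD7 and downstream of ID3, were 5054 and 3026 bp wide.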

How the data were processed

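The list compares 1 V5 ChIP library of TET1-V5 cells with 1 input library. BWA 0.7.17 and hg19 are the aligner and build named in the submitters' processing notes. Peak names in the deposited list point to MACS as the caller, and its version and parameters are not given in the labels or the file. It gives position and a score for each peak, deposited by the authors with no stated unit, running from 50 to 3233.06, and 2030 peaks are tied at 3100. Scores of 3100 or more (these 2030 and 135 above) were taken as 1 class, the ceiling. Positions are counted from 1.

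Peaks were assigned to genes by an overlap of at least 1 base with the spans, which are given in whole kb, so distances from a start are good to about 1 kb. The direction of transcription came from the RefSeq promoter table for 7 genes and is textbook knowledge for BMP2, BMP7 and NOG. Genome figures refer to the 2438 Mb between first and last peaks without peak-free intervals over 1 Mb, and to fixed tiles of 50 and 150 kb within them. Python 3.11.15, pandas 2.3.3, numpy 2.4.6, scipy 1.17.1 and matplotlib 3.10.9 were used, and overlap counting was tested on simulated data. With 1 library per group there is no test and no p-value. All 10 genes are named by rule, with the peak over the start, the widest and the highest scoring peak of each. The genes and lists were chosen with earlier results of these data known. Other pathway genes, among them receptors and SMAD4, were not analysed here because hg19 positions were not used.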

Additional observations from a re-analysis of the deposited data

How the results depend on the processing

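The 8 results were recomputed to 52 alternative values. Of these, 34 lay within 1.5 times (counts and peaks per window) or within the 95% interval (shares, median width and median score) of the value as reported, and 18 did not. The interval of the covered share took each kb of window as independent, so it is too narrow for clustered peaks. The alternative values on the start ends were chosen after seeing the data. Upper 50% of the list by score: 26 peaks, 15.7% of windows covered, 30.8% at the ceiling, median width 3678 bp, median score 809.9 and a median of 2 peaks per window. Top 25% by score: 15 peaks, 12.2%, 53.3%, 5578 bp, 3100 and 1 peak. Both thresholds change these values by construction. Without flanks 29.1% was covered and the median was 1 peak per gene, with 10 kb flanks 27.5% was covered, and with 50 kb flanks there were 91 peaks, 16.3% covered and a median of 6.5 peaks, against 3.5 as reported. The numbers of genes with a ceiling peak (8) and with a peak over the start (10) could not fall under the score thresholds, merging or flanks used, so their values say nothing of stability. Leaving out each gene in turn gave 18.0% to 23.98% covered (the lowest without SMAD7), 12.5% to 16.7% at the ceiling, median widths of 1611 to 1748 bp and median scores of 151.01 to 203.8. No paired analysis was possible because ChIP and input are a lone library each. Read depth is unknown, so the precision of a score or a peak edge could not be estimated.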

Other observations

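Within SMAD3 the RefSeq promoter table lists 4 further starts inside the gene. The 250 bases before them held 3 to 5 CG dinucleotides each, where the stretch before the outermost start held 36. The weak peaks inside SMAD3 were not matched to these starts, because the table and the peaks are on different builds. SMAD7 has 2 inner starts in the table, with 13 and 2 CG dinucleotides, and the 3 listed for BMP4 had 25, 17 and 27.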
